A study of Homo sapiens with 9 samples.

Results

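Broad H3K4me3 domains of control HEL cells were described as genome regions, and their members were chosen by the peak positions of the 3 control libraries alone. In each control library peaks separated by at most 1000 bp were joined, joined domains spanning at least 4000 bp were kept, and the 3 lists were intersected. Of 14083 stretches of joined peaks shared by the 3 control libraries, called NTC blocks here, 40 met this rule and are the broad domains. HEL is an established human erythroleukemia line, and histone H3 carrying trimethylated lysine 4 (H3K4me3) was mapped in it by CUT&RUN, a method that cuts chromatin with an antibody-guided nuclease and sequences the DNA set free. The 9 libraries came from cells with a non-targeting CRISPR guide (NTC, 3 libraries) and from cells labelled as CRISPR knockouts (KO) of METTL3, METTL14 or WTAP, with 2 libraries each. All cells were grown in RPMI with serum, and the labels do not say whether a KO group was a clone or a pool. The peak lists carry no RNA, so the loss of the targeted genes was not checked here.

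METTL3, METTL14 and WTAP are subunits of the complex that writes N6-methyladenosine (m6A) on mRNA, METTL3 being the catalytic subunit, METTL14 its partner in binding RNA and WTAP an adaptor. H3K4me3 is laid down at active promoters by the SETD1 and MLL families of methyltransferases and usually forms a short peak on either side of the nucleosome-free start site. Broad domains of the mark, spread far into the gene, are known for covering genes tied to the identity of a cell type. The question put to these regions was how much of each domain was still covered by peaks once a subunit of the m6A complex had been knocked out.

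The lists held 21724 to 21941 peaks in the NTC libraries, 9369 and 9205 in METTL3-KO, 5286 and 3169 in METTL14-KO, and 3160 and 3673 in WTAP-KO. Each peak was between 150 and 2000 bp wide, with a calibrated signal. The peaks of a list covered 17.0 to 17.2 Mb in NTC, 5.43 and 5.00 Mb in METTL3-KO, and 1.38 to 2.40 Mb in the other KO libraries. A peak was listed where its signal passed a height threshold on the calibrated scale, so 0 below means that no peak was listed and not that the mark was absent. No listed peak was narrower than 150 or wider than 2000 bp, so a stretch outside these widths may be missing from a list. Each broad domain is therefore a row of joined peaks of at most 2000 bp. At KMT2A and KDM5A a peak within 1000 bp of a start was listed in 0 NTC and 6 KO libraries, at GATA1 and KLF1 in 3 NTC and 0 KO libraries. Whether the widest control signal went unlisted was not tested. The lists give no fragment totals, and the sequencing depth is not known from them. The labels do not name separate cultures, so p-values measure the spread between these libraries, which may be technical. The erythroid label was checked by promoter peaks within 1000 bp of a start. A peak in all 3 NTC libraries was present at 6 of 8 erythroid markers, 3 of 6 megakaryocyte, 2 of 5 myeloid, 1 of 5 lymphoid and 1 of 5 non-blood markers.

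The 40 domains spanned 3893 to 7784 bp with a median of 4403 bp and covered 187749 bp in all. A protein-coding start lay inside 31 of them, with 37 coding genes in or within 1000 bp and more than 1 such gene at 5. Of the rest, 4 were named by the start of a long noncoding RNA, 2 by the coding gene whose body held them, and 3 were intergenic. The members stood apart in 1 respect that bears on every result. Within 100 kb of an assembly gap, a run of unknown bases of at least 10 kb in hg19, lay 4 domains, and none of them held a coding start. These were chr19:27731887-27739670 at 104 bp from a gap, chr16:46398174-46402135 at 12372 bp, the domain at the noncoding gene FAM27C on chr9:44989694-44994167 at 31400 bp, and chrY:10019096-10024591 at 79962 bp. Of the 32-base words in the FAM27C domain, 3.51% occurred once in hg19, against 22.9%, 77.2% and 80.5% in the domains of chromosomes 16, 19 and Y and a median of 97.05% in the 36 others. The results are therefore given for all 40 domains and for the 36 away from gaps, a split chosen after the values were seen.

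Sequences are shown for 5 domains that mark out the patterns described below. In the stretches from SRPK1, chromosome Y and MAP3K5, capitals mark CpG dinucleotides. The first 2 lie within stretches that had a peak in all 9 libraries, of 720 bp at SRPK1 and 687 bp on chromosome Y, and the MAP3K5 stretch lies in a stretch of 1673 bp that peaks of the 3 NTC libraries shared and that held none in a KO library. For SRF and E2F3 the 250 bases before the annotated start are shown, with CCAAT boxes, the GC box CCGCCC and CArG boxes, the sequences that SRF binds, in capitals on either strand. All are hg19 and read 5′ to 3′ on the strand of the gene, or on the plus strand for chromosome Y, and none overlaps an annotated exon.
SRPK1 (chr6:35887496-35887795, minus strand): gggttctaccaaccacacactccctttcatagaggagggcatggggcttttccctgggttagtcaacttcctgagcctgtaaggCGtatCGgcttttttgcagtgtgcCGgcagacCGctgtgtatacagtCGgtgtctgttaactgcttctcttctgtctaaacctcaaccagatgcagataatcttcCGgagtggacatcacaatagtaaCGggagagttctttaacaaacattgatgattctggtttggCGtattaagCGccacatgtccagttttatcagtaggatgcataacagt
SRF (chr6:43138757-43139006, plus strand): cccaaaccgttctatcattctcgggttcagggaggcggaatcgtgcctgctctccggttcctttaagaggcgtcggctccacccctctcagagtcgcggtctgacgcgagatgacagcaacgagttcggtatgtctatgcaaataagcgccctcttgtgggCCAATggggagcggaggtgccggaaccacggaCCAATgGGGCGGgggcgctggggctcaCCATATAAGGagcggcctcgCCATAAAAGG
E2F3 (chr6:20401860-20402109, plus strand): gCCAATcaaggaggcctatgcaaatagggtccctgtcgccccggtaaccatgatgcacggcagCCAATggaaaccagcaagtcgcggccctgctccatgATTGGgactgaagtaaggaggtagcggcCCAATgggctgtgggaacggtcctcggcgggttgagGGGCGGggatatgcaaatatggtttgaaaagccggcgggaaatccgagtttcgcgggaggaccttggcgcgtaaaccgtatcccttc
chromosome Y domain (chrY:10023222-10023521, plus strand): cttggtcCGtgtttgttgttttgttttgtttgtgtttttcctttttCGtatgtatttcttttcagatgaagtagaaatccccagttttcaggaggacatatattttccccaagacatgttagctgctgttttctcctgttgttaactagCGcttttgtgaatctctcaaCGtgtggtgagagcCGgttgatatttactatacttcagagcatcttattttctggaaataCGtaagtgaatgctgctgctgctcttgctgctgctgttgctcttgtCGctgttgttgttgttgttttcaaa
MAP3K5 (chr6:137058946-137059245, minus strand): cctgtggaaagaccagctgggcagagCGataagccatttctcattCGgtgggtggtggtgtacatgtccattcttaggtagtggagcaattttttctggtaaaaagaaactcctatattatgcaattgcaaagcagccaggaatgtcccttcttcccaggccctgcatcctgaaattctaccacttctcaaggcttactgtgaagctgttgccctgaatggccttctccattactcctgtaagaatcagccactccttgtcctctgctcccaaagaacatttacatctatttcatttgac

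The SRPK1 stretch was centred 1229 bp downstream of the start and held 9 CpG dinucleotides in 300 bases, the chromosome Y stretch held 7 and the MAP3K5 stretch 2. Over whole domains, the density of CpG ran from 9.48 per kb at MAP3K5 to 71.9 per kb at RBPJ, with a median of 43.2. Upstream windows were read at the 28 domains away from gaps with 1 canonical coding start inside, 3 of which (MLF2/PTMS, FHOD1/SLC9A5 and FGF11/TMEM102) also held another start of a second gene. CCGCCC was present in 25 of these 28 windows and in 59.2% of the windows of 19862 coding genes, and CCAAT in 9 of 28 and in 34.3%. The 19862 windows were taken with or without H3K4me3, and no share was computed for marked windows alone. CArG boxes were present in 1 of 28, that of SRF itself, and in 1.12% of all windows. The ETS motif CCGGAAG was in 1 window, that of WASL, and in 11.9% of all, and the GATA motif AGATAA in 0 of 28 and in 6.57% of all. None of these motifs contains another, and both strands were searched.

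**Figure D1:**
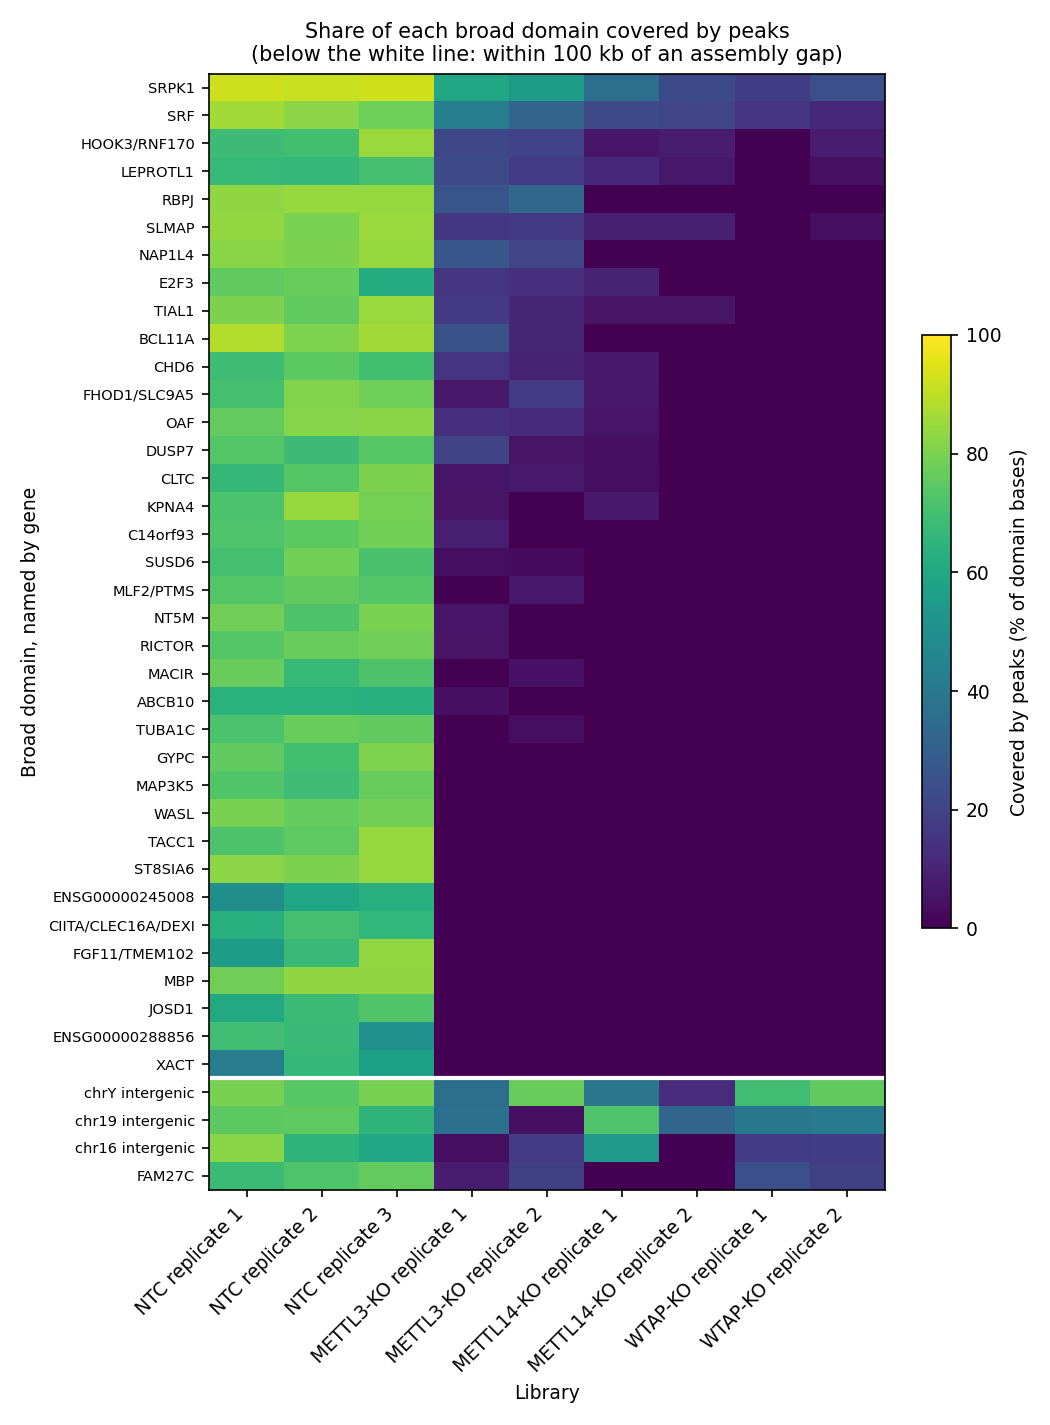
Share of the bases of each of the 40 broad domains (rows, named by gene) covered by peaks in each library (columns), from 0% (dark) to 100% (yellow). Rows are ordered by the mean over the 6 KO libraries, with the 4 domains within 100 kb of an assembly gap below the white line. The NTC columns run from 42.2% to 92.9%, 12 rows are at 0 in every KO library, and the 4 lowest rows hold most of the coverage seen in WTAP-KO.

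In the control cells, peaks covered 73.0%, 74.5% and 75.7% of a domain on average in the 3 NTC libraries (74.4% ± 1.36, SD, n = 3). The mean was 10.9% ± 0.573 in METTL3-KO, 5.21% ± 3.22 in METTL14-KO and 4.89% ± 0.335 in WTAP-KO (n = 2 each). Over the 36 domains away from gaps the NTC mean was 74.6% ± 1.86, and the means were 9.31% ± 1.30 in METTL3-KO, 2.86% ± 1.22 in METTL14-KO and 1.19% ± 0.356 in WTAP-KO. Each KO library was below each NTC library in both sets. The NTC libraries chose the members, so this difference is a description and was not tested. To see how far the choice itself raised the NTC values, domains were also found in each pair of NTC libraries and measured in the library left out. The library left out then covered 64.9%, 62.6% and 64.9% of 56, 65 and 56 domains, and the 6 KO libraries 6.43%, 6.28% and 7.14% on average.

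**Figure D2:**
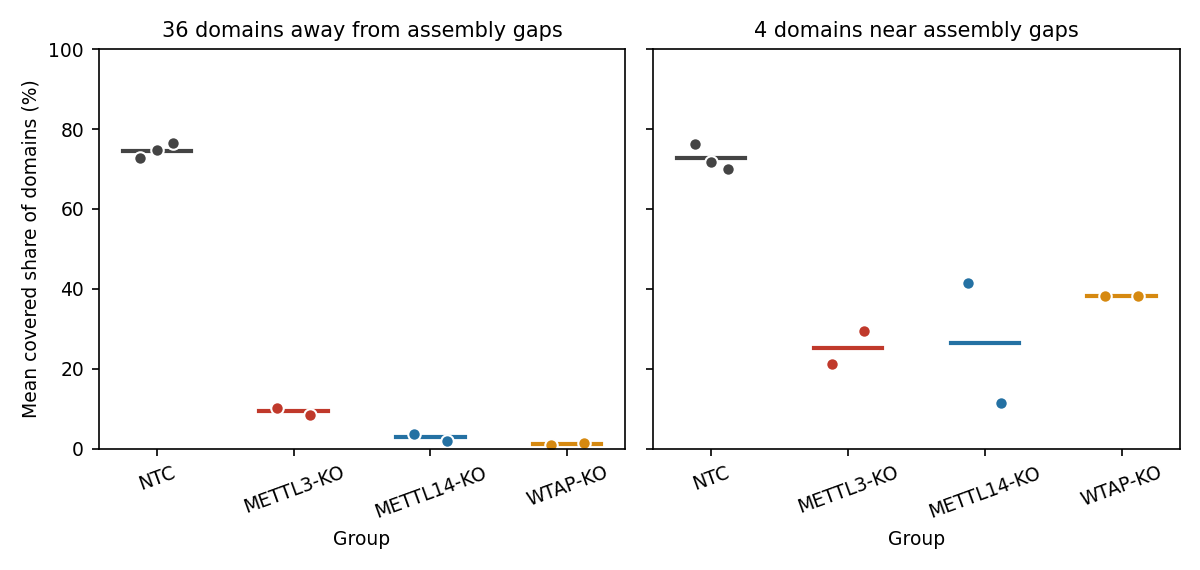
Mean covered share of the broad domains in each library (points) and the mean of each group (lines), for the 36 domains away from assembly gaps (left) and the 4 within 100 kb of one (right). On the left the order is NTC, METTL3-KO, METTL14-KO and WTAP-KO, with group means of 74.6%, 9.31%, 2.86% and 1.19%, while on the right WTAP-KO is at 38.2% and METTL3-KO at 25.3%.

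Away from gaps, 2 of the 36 domains had a peak in all 6 KO libraries, SRPK1 and SRF. With the domains of chromosomes 19 and Y 4 of 40 did, against 3.61% of all NTC blocks, most of which are shorter. SRPK1 encodes a kinase that phosphorylates SR proteins of the splicing machinery. Its domain, chr6:35886386-35890367, was covered over 92.4%, 91.5% and 92.9% in NTC, 59.6% and 55.3% in METTL3-KO, 36% and 22.3% in METTL14-KO, and 18.6% and 24.4% in WTAP-KO. Its summed signal was 84932, 81876 and 100572 in NTC, 24826 and 12042 in METTL3-KO, 12734 and 7767 in METTL14-KO, and 5734 and 9414 in WTAP-KO. No KO library reached the lowest NTC library, and the METTL14-KO and WTAP-KO libraries overlapped. This was also the strongest domain away from gaps in NTC by signal. The downstream peak was the one left in all KO libraries: it ran from 547 to 2489 bp after the start in NTC replicate 1 and from 849 to 1589 bp in WTAP-KO replicate 1. The peak over the start itself was absent from both WTAP-KO libraries and from METTL14-KO replicate 2.

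SRF is the transcription factor that binds CArG boxes at cytoskeletal and immediate early genes, and its own upstream window holds 2 of them. The SRF domain, chr6:43138277-43142543, was covered over 86.1%, 82.7% and 78.1% in NTC, 42.9% and 32.8% in METTL3-KO, 23.2% and 21.0% in METTL14-KO, and 15.4% and 11.3% in WTAP-KO. The 4 groups did not overlap at this domain. Its signal was 8344 and 6167 in METTL3-KO, 5109 and 2609 in METTL14-KO, and 612 and 377 in WTAP-KO, against 37230 to 42247 in NTC. The piece kept in every library was the peak just upstream of the start, from 442 to 28 bp before it in WTAP-KO replicate 1, which took in 222 of the 250 bases printed above. A peak more than 3000 bp downstream was kept in each KO library except WTAP-KO replicate 2. The middle peak, from 614 to 2497 bp in NTC replicate 1, was present in both METTL3-KO libraries and in no METTL14-KO or WTAP-KO library.

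**Figure D3:**
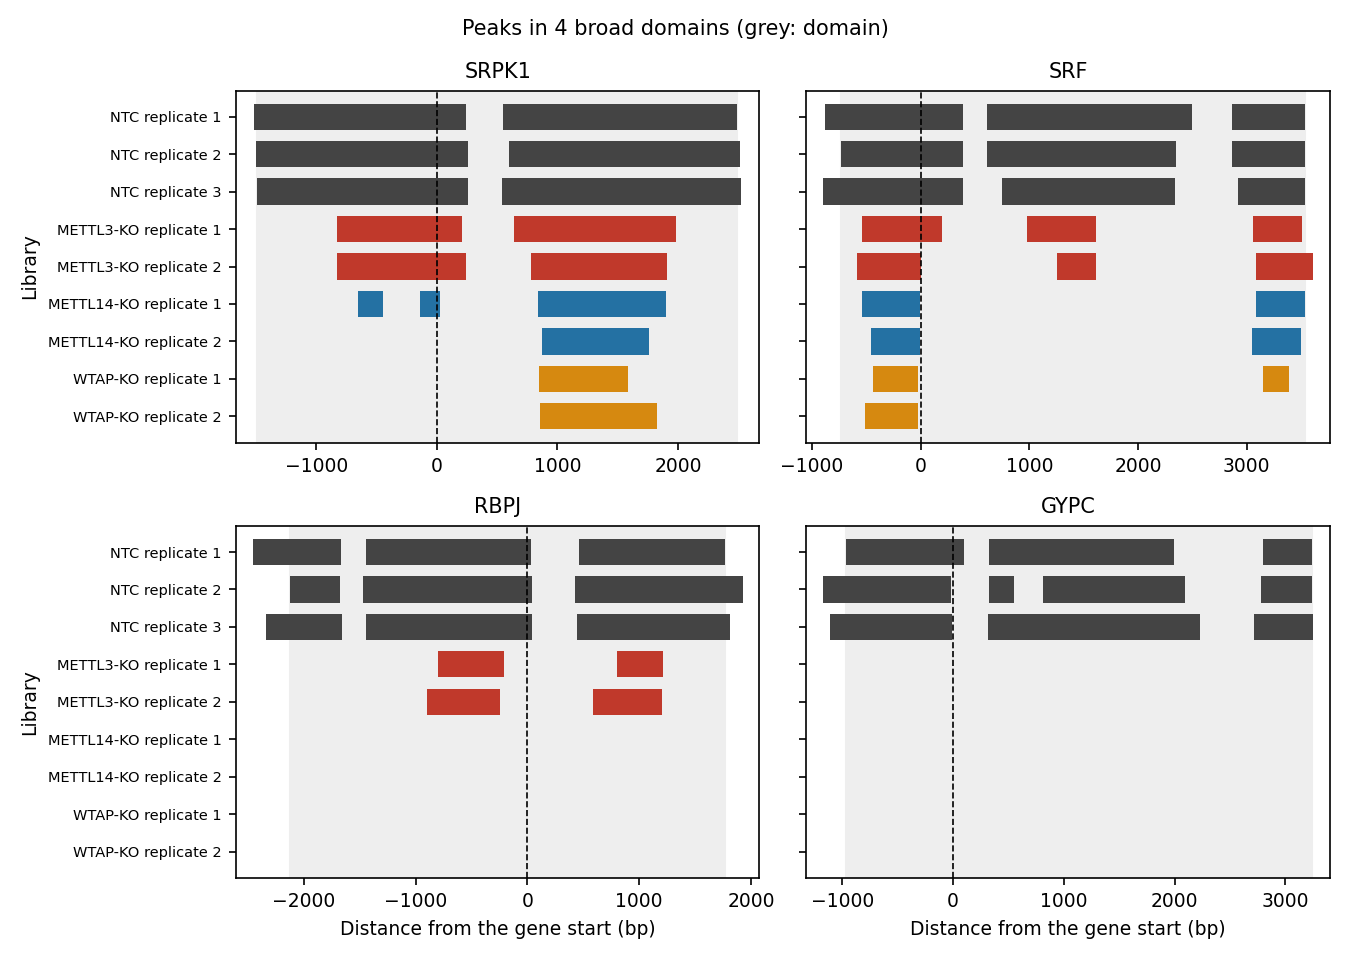
Peaks of each library (bars) in the SRPK1, SRF, RBPJ and GYPC domains (grey), as distance in bp from the annotated gene start (dashed line, positive is downstream). SRPK1 and SRF keep at least 1 peak in each of the 9 libraries, RBPJ keeps peaks in both METTL3-KO libraries only, and GYPC in no KO library.

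At the RBPJ, NAP1L4, BCL11A and SUSD6 domains both METTL3-KO libraries had a peak and neither METTL14-KO nor WTAP-KO did. This makes 4 of 40 domains against 7.73% of all blocks, most of which are shorter. RBPJ, the DNA-binding factor of Notch signalling, had a domain of 3893 bp at chr4:26320511-26324403, covered over 83.3%, 84.6% and 84.3% in NTC and over 26% and 32.8% in METTL3-KO. Its signal was 24819 to 28004 in NTC and 2296 and 1691 in METTL3-KO. The peaks kept there lay on both sides of the start. NAP1L4, a histone chaperone, was covered over 80.3% to 84.4% in NTC and 26.9% and 21.1% in METTL3-KO. BCL11A, a repressor of fetal globin genes, was covered over 80.5% to 88.4% in NTC and 24.9% and 10.8% in METTL3-KO. Within 1000 bp of any BCL11A start a peak was listed in 4 KO libraries. The zeros thus hold for this domain and not for all sequence near a start of the gene. At SUSD6 the METTL3-KO peaks were small, covering 3.64% and 2.96% of a domain of 5609 bp.

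A METTL3-KO library had a peak at 24 of the 36 domains away from gaps, and each domain with a peak in METTL14-KO or WTAP-KO was among these 24. A single KO library, one of METTL3-KO, had a peak at 7 domains: ABCB10, a mitochondrial inner-membrane transporter of erythroid cells, RICTOR, a subunit of the mTORC2 kinase complex, MACIR, MLF2/PTMS, TUBA1C, C14orf93 and NT5M. In these 7 the covered share in that library was between 3.83% at TUBA1C and 8.43% at C14orf93. Both METTL3-KO libraries and METTL14-KO replicate 1 had a peak at 6 domains. These were E2F3, a cell cycle transcription factor, DUSP7, a phosphatase of ERK kinases, CLTC, the clathrin heavy chain, CHD6, a chromatin remodeler, FHOD1/SLC9A5 and OAF. At E2F3 the cover was 62.1% to 76.7% in NTC, 15.4% and 13.9% in METTL3-KO and 9.80% in METTL14-KO replicate 1, and peaks of these 3 KO libraries took in 249, 242 and 242 of the 250 bases printed above. KPNA4, an importin, had a peak in 1 METTL3-KO and 1 METTL14-KO library. TIAL1, an RNA-binding protein, kept peaks over 16.9% and 10.6% in METTL3-KO and 5.23% and 5.18% in METTL14-KO. SLMAP, LEPROTL1 and HOOK3/RNF170 had a peak in each KO library except WTAP-KO replicate 1.

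No peak was listed in any KO library at 12 domains, all of them away from gaps, against 68.7% of all blocks, most of which are shorter. Ranked by NTC signal these began with MAP3K5, ST8SIA6, WASL, TACC1 and GYPC. MAP3K5, a stress-activated kinase, had the second longest domain, 7704 bp at chr6:137058209-137065912, lying in an intron 47703 bp from the nearest coding start. It was covered over 73.0%, 69.1% and 76.9% in NTC with a signal of 30870, 37727 and 51068. Of the 40 domains, SRPK1 and those of chromosomes 19 and Y had a higher mean NTC signal. ST8SIA6, a sialyltransferase, was the other domain named by a gene body, 22078 bp from the nearest start, with 80.3% to 84.0% covered in NTC. GYPC, the red cell glycophorin C, was covered over 75.6%, 69.6% and 80.7% in NTC with a signal of 13926, 14128 and 15984. WASL, an activator of actin assembly, was at 76.5% to 79.5% in NTC and TACC1, a centrosomal protein, at 72.3% to 84.6%. The other 7 were MBP, JOSD1, FGF11/TMEM102, CIITA/CLEC16A/DEXI, and the noncoding genes XACT, ENSG00000245008 and ENSG00000288856. The ENSG00000288856 domain, of 6113 bp, was centred in an intron of BCOR and lay 1877 bp from the nearest coding start, also of BCOR. XACT had the lowest NTC cover of the 40 in a single library, 42.2%, and the lowest mean signal, 4107. All 3 domains named by a noncoding start away from gaps and both named by a gene body were among the 12, as were 7 of the 31 domains with a coding start.

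The 4 domains near assembly gaps had the KO groups in another order. Their mean cover was 72.7% ± 3.18 in NTC (n = 3), 25.3% ± 5.94 in METTL3-KO, 26.4% ± 21.3 in METTL14-KO and 38.2% ± 0.146 in WTAP-KO (n = 2 each). The domain of chromosome 19, the longest and strongest of the 40, had a signal of 197822, 166484 and 147851 in NTC, 90114 and 2931 in METTL3-KO, 217631 and 67794 in METTL14-KO, and 383058 and 447847 in WTAP-KO. Both WTAP-KO libraries were above all 3 NTC libraries there, although peaks covered less of the domain, 40.4% and 40.7% against 65.2% to 75.4%. On chromosome 16 the signal was 11654 to 21873 in NTC, 124 and 13829 in METTL3-KO, 22423 and 0 in METTL14-KO, and 38210 and 50234 in WTAP-KO, so that METTL14-KO replicate 1 and both WTAP-KO libraries were above all NTC libraries. The domain of chromosome Y was covered over 74.0% to 79.6% in NTC and over 36.2% and 76.8% in METTL3-KO, 39.6% and 12.5% in METTL14-KO, and 69.5% and 75.4% in WTAP-KO. At FAM27C the signal was 8000 and 12267 in WTAP-KO, 1867 and 5152 in METTL3-KO and 0 in both METTL14-KO libraries. Among the 4 domains, mean KO cover rose with the share of sequence found once in hg19. Mean KO cover was 11.8% at FAM27C (3.51% found once) and 18.6% on chromosome 16 (22.9%). It was 37.8% on chromosome 19 (77.2%) and 51.6% on chromosome Y (80.5%). Of the 36 others, XACT, with the lowest share found once, 68.5%, had no KO peak. Among those with 100%, GYPC had none and SRF had a peak in all 6 KO libraries. The part of repeated sequence in these values was not tested.

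The KO libraries did not choose the members, so the KO groups could be compared. The METTL3-KO lists were also larger over the whole genome, 5.43 and 5.00 Mb against 1.38 to 2.40 Mb in the other KO libraries. The part of list size in the differences below was not tested. Over the 40 domains METTL3-KO was covered over 5.86 percentage points more than METTL14-KO and WTAP-KO together (10.9% against 5.05%), with both METTL3-KO libraries above the 4 others (exact permutation test, two-sided, p = 0.133, which is as low as 2 against 4 libraries can go). Away from gaps the difference was 7.29 points (9.31% against 2.03%, exact p = 0.133), and in the 4 domains near gaps it was -7.01 points (exact p = 0.667). METTL14-KO and WTAP-KO differed by 0.316 points over the 40 domains (exact p = 1) and by 1.66 points away from gaps (exact p = 0.333, as low as 2 against 2 can go). The median over the 40 domains was 5.59% and 4.59% in METTL3-KO, and 0% in each of the 4 other KO libraries. At 16 of the 40 domains, all away from gaps, both METTL3-KO libraries were covered more than each of the 4 others. This held at 18.3% of all blocks, most of which are shorter. The 2 METTL3-KO libraries had a peak at 58.3% and 52.8% of the 36 domains away from gaps. They had one at 69.2% and 61.2% of the other blocks there with a shortest joined span from 3000 bp to under 4000 bp.

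Domain by domain, the summed signal was compared with limma on log2(signal + 30.1), fitted over all 14083 NTC blocks and all 9 libraries. The log2 signal of METTL3-KO was above the average of the log2 signals of the other KO groups at 9 of the 40 domains and at 8 of the 36 away from gaps, and at none did it pass below it. The 1 near a gap, FAM27C, passed on the zeros of METTL14-KO, and its METTL3-KO signal was below that of WTAP-KO. Over all blocks, most of which are shorter, 13.1% passed in either direction, 1843 of them higher in METTL3-KO and 1 lower. The smallest adjusted p values from limma were at RBPJ (3.67e-05), NAP1L4 (5.75e-05), BCL11A (6.86e-05) and SUSD6 (0.000178). Both other groups were listed at 0 there, so that no fold is given. Libraries listed at 0 add no spread to the fit, and the part of this in these p values was not tested. TIAL1 (adjusted p = 0.000981), FAM27C (0.0184), CLTC (0.0212) and HOOK3/RNF170 (0.0216) also passed. At SRF, measured in all libraries, the log2 difference was 2.39 ± 0.37 (SE, adjusted p = 0.00474 by limma). SRPK1 differed by 1.01 ± 0.36 and did not pass (adjusted p = 0.158 by limma). Of the 9, RBPJ, NAP1L4, BCL11A, SUSD6, TIAL1 and SRF, passed under all 16 alternatives, while CLTC and HOOK3/RNF170 were lost under 9 and FAM27C under 8, among them leaving out NTC replicate 1 or 2. Libraries centred on the blocks with a peak in all 9 moved the median of all blocks by -1.49 on the log2 scale. The calls moved to 1961 higher and 9536 lower, among the domains 14 and 15. A block at 0 in every KO library then takes the shift itself. At 0 in every KO library were 12 domains, fewer than the 15 called lower, and the cause of the other calls was not tested.

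Between METTL14-KO and WTAP-KO 3 of 40 domains passed, against 1.19% of all blocks, most of which are shorter. FAM27C was higher in WTAP-KO (adjusted p = 0.00726 by limma), with METTL14-KO listed at 0. TIAL1 was higher in METTL14-KO (adjusted p = 0.0194), with WTAP-KO at 0, and so was SRF, by 2.85 ± 0.42 on the log2 scale (SE, adjusted p = 0.0307). None of the 3 passed in a fit of the KO libraries alone or with the replicate number as a block, under which no block of all 14083 passed and 369 had an unadjusted p under 0.05. Centring changed the split over all blocks from 143 higher and 24 lower in METTL14-KO to 181 and 74.

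Broad domains were next set against the other NTC blocks by the bases with a peak in all 3 NTC libraries and the share of these that kept a peak in a KO library. Over all blocks the domains kept 11.0% and the other blocks 7.64% on average over the 6 KO libraries, a difference of 3.33 ± 2.09 points that was above 0 in 6 of 6 libraries (exact sign-flip test, two-sided p = 0.0312, the smallest possible). Away from gaps the direction turned. The 36 domains kept 6.47% and the other blocks 7.45%, a difference of -0.983 ± 0.655 points, below 0 in 6 of 6 libraries (exact p = 0.0312). The 4 domains near gaps kept 46.7% ± 15.4 and the 355 other blocks near gaps 16.0% ± 5.85 (SD, n = 6). By span, the blocks away from gaps kept 2.63% where the shortest joined span was under 1000 bp, 9.93% from 1000 bp to under 2000 bp, 6.84% from there to under 3000 bp and 10.9% from there to under 4000 bp. The share thus did not rise steadily with span, and the domains were below the class just shorter than they are, with no test of that pair. NTC signal per covered base was 6.20 in the domains away from gaps and 7.08 in that class.

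**Figure D4:**
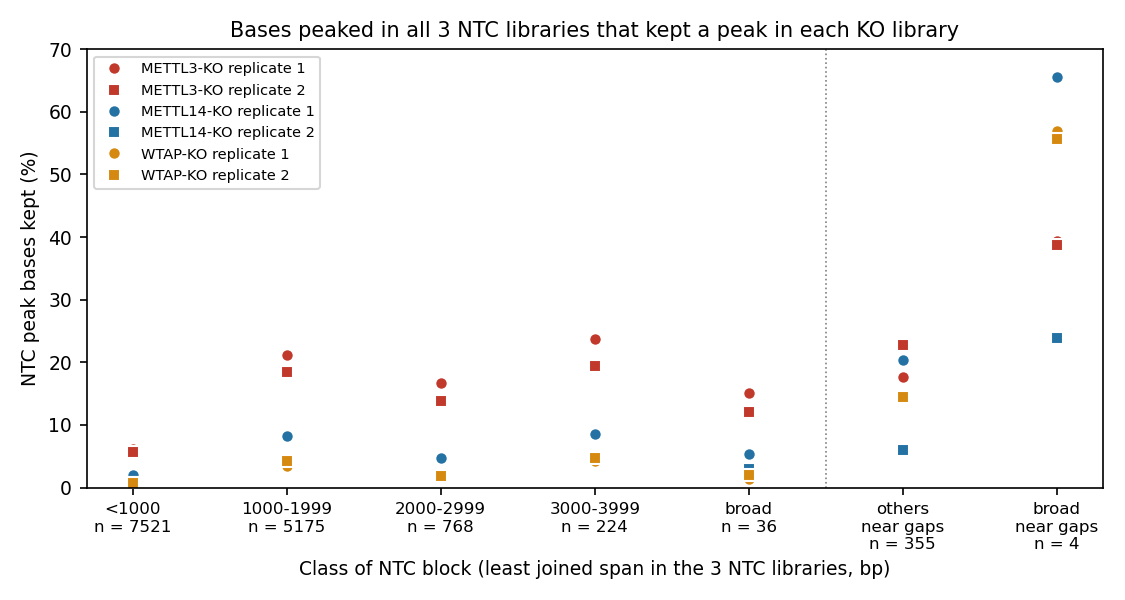
Share of the bases with a peak in all 3 NTC libraries that also had a peak in each KO library (points), by class of NTC block, with the number of blocks under each class. Left of the dotted line are blocks away from assembly gaps by their shortest joined span in the NTC libraries, ending with the 36 broad domains. The METTL3-KO points are highest in each class there, and the 4 broad domains near gaps reach 23.9% to 65.6%.

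Within the bounds of the domains away from gaps, the bases of KO peaks lay almost all inside the control peaks. In these 36 domains the KO libraries held 3 to 31 peaks. Of the domain bases they covered, 99.9% to 100% had a peak in all 3 NTC libraries, against 84.9% to 100% in the 4 near gaps. The domains were built from NTC peaks, and a median of 66.45% of a domain away from gaps had a peak in all 3 NTC libraries. Parts of KO peaks outside a domain were not counted. The median width of the KO peaks in the 36 was 287 to 448 bp and the widest 1344 bp, where no peak of any list is wider than 2000 bp. The position of the peaks was read against the canonical start at the same 28 domains. The domains reached a median of 1184 bp upstream and 2978.5 bp downstream of it, and 21 of the 28 reached farther downstream. In NTC the cover was 92.7% to 97.4% between 1000 and 500 bp before the start, fell to 39.5% to 45.7% in the first 500 bp after it, and was 94.2% to 97.3% from 1000 to 1500 bp after it. In METTL3-KO the cover was highest in the last 500 bp before the start, 33% and 23%, was 22% and 15.4% from 1000 to 1500 bp, and was 0% from 2000 to 2500 bp, where NTC was at 51.0% to 58.2%. Between 1500 and 1000 bp before the start all 6 KO libraries were at 0, against 73.6% to 82.8% in NTC. Peak centres lay within 1000 bp of the start for 37.9% to 39.1% of NTC peaks and 63% and 72% of METTL3-KO peaks. In METTL14-KO and WTAP-KO only 3 to 15 peaks were left to count.

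**Figure D5:**
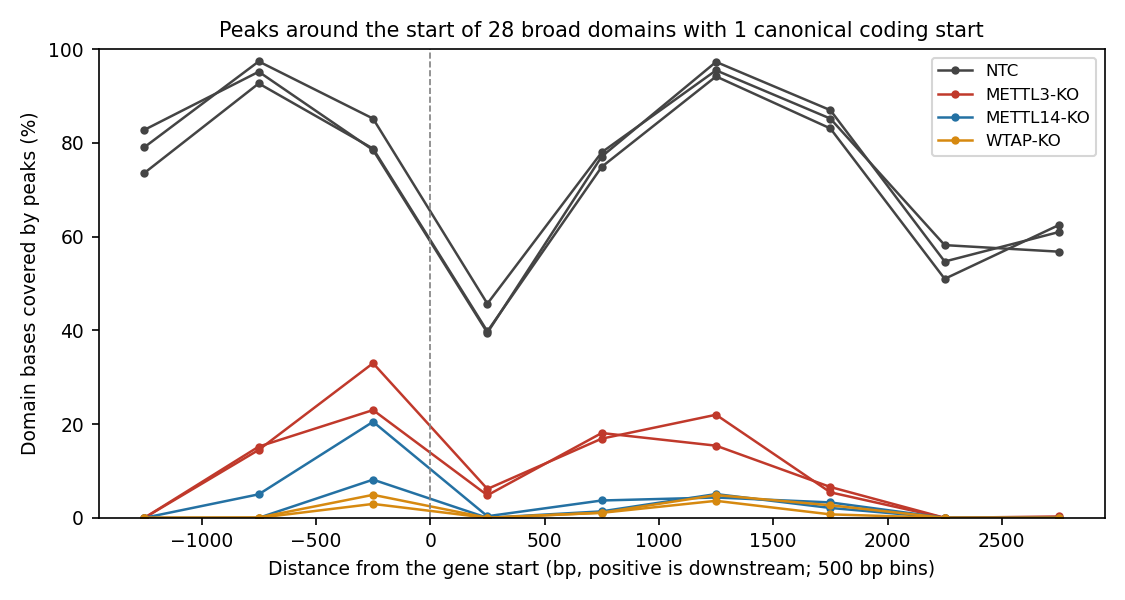
Share of domain bases covered by peaks in 500 bp bins around the annotated start, over the 28 broad domains with 1 canonical coding start, with 1 line per library. The NTC lines have a dip of 39.5% to 45.7% just after the start between 2 shoulders, the METTL3-KO lines have lower and narrower shoulders, and all KO lines are at or near 0 beyond 2000 bp downstream.

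The genes under the domains were set against lists of erythroid, megakaryocytic, myeloid, heme, membrane, signalling, chromatin, RNA-binding and cell cycle genes. A domain lay at 1 of 8 erythroid markers and 1 of 16 membrane skeleton genes, GYPC in both lists, at 1 of 18 erythroid transcription factors, BCL11A, and at 1 of 18 heme and iron genes, ABCB10. Over all 20136 coding genes 37 had a domain, or 0.184%. No domain lay at a gene of the other 11 lists, which are partial: E2F3, CHD6, TIAL1 and DUSP7 have domains and are in none of them. ABCB10 was covered over 63.1% to 64% in NTC and over 4.20% in METTL3-KO replicate 1 only. GATA1 and KLF1, the leading erythroid transcription factors, had joined peaks of at least 2771 and 1215 bp in the 3 NTC libraries, METTL3 1617 bp and METTL14 547 bp, all under the limit, and WTAP had a promoter peak in 2 NTC libraries.

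The limit of 4000 bp cut through a continuous range. Just inside it by the shortest joined span were SRPK1 (4005 bp), RBPJ (4050 bp) and MBP (4064 bp), and just outside were AP4S1/STRN3 (3997 bp), GON4L/SYT11 (3980 bp) and MBOAT7/TSEN34 (3967 bp). The 3 just outside were covered over 66.6% to 91.2% in NTC, 5.30% to 23.5% in METTL3-KO, 0% to 9.49% in METTL14-KO and 0% in WTAP-KO.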

How the data were processed

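H3K4me3 CUT&RUN peak lists of 9 HEL libraries were analysed, grouped and numbered by their labels. The authors aligned paired reads to hg19 and to the yeast genome sacCer3 for spike-in calibration (Bowtie and Picard in the submitters' processing notes, versions not given), called peaks in each library and deposited a position and a signal, in calibrated coverage units, per peak. Starts were read as counted from 0. No peak ended past an hg19 chromosome.

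Peaks with gaps of at most 1000 bp were joined, and domains, blocks, covered shares and 32-base words (20 sampled per block outside the domains) were computed with Python 3.11.15, NumPy 2.4.6, pandas 2.3.3, SciPy 1.17.1 and pysam 0.24.0 on hg19 with GENCODE starts. Genes were assigned within 1000 bp of a start. Summed signal was tested with limma 3.58.1 (R 4.3.3, trend, Benjamini-Hochberg at 0.05 over 14083 blocks), with the smallest block signal, 30.1, as pseudocount. This scale understates changes of weak blocks. NTC libraries entered the fit for its spread only, and the contrasts hold none. Interval and limma steps were tested on simulated data. Named domains were the 10 longest, the 5 most covered in KO, the 5 strongest with no KO peak, the 5 smallest p per contrast, the 3 on each side of the limit and those at listed genes. Members, lists and tests were chosen with earlier results of these data known. Alternatives were the join gap, span, intersection rule, peak threshold, pseudocount, filter, libraries in the fit, covered bases, centring, the replicate block, leaving out libraries and, chosen after seeing the data, leaving out domains within 100 kb of a gap.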

Additional observations from a re-analysis of the deposited data

Results flagged for a closer look

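The KO groups differed at 9 domains by the limma contrasts between them, at 3 of them in both contrasts. The log2 signal of METTL3-KO was above the mean log2 signal of METTL14-KO and WTAP-KO at RBPJ (limma adjusted p = 3.67e-05), NAP1L4 (5.75e-05), BCL11A (6.86e-05), SUSD6 (0.000178), TIAL1 (0.000981), SRF (0.00474), FAM27C (0.0184), CLTC (0.0212) and HOOK3/RNF170 (0.0216). At FAM27C METTL3-KO was below WTAP-KO and above METTL14-KO, listed at 0. METTL14-KO and WTAP-KO differed at FAM27C (limma adjusted p = 0.00726), TIAL1 (0.0194) and SRF (0.0307). Over the alternatives the adjusted p of RBPJ ranged from 4.88e-06 to 0.00124, that of SRF in the first contrast from 0.00138 to 0.0479, and that of CLTC from 0.000123 to 0.106. CLTC lost its call under 9 of 16 alternatives, HOOK3/RNF170 under 9 and FAM27C under 8. In the second contrast SRF lost its call under 12 of 16, TIAL1 under 8 and FAM27C under 2. CLTC was lost without any 1 NTC, METTL3-KO or WTAP-KO library (limma adjusted p of 0.0557 to 0.106 then), HOOK3/RNF170 without any 1 NTC or METTL3-KO library (adjusted p of 0.0654 to 0.0844 then), and FAM27C without NTC replicate 1 or 2 or WTAP-KO replicate 1 (0.0515, 0.0548 and 0.0541). In the second contrast TIAL1 was lost without any 1 NTC or WTAP-KO library (limma adjusted p of 0.0664 to 0.0995), and SRF without any 1 library other than METTL14-KO replicate 2 (0.0627 to 0.126). Libraries listed at 0 add no spread to these fits, and the part of this in the calls was not tested.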

How the results depend on the processing

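The number of domains followed the rule closely. It was 7 with gaps of at most 500 bp joined, 390 with 3000 bp, 270 with a span of 3000 bp, 9 with 5000 bp, 12 when weaker peaks, under the NTC median signal, were dropped, and 56 to 65 without an NTC library. The mean KO covered share was 7%, and 16.7%, 4.08% and 12.2% with gaps of 500 bp, gaps of 3000 bp and a span of 5000 bp, 4.46% away from assembly gaps, and 6.14% to 7.82% without a library. The difference from other blocks was 1.25 points (exact p = 0.125) with gaps of 3000 bp, 2.14 (exact p = 0.125) with intersections of at least 4000 bp, and -0.983 away from assembly gaps. It was 2.06 to 3.84 without a library. The exact p rose to 0.0625 without NTC replicate 1 (2.51 points) or 2 (2.06), and without a KO library 0.0625 is the lowest that 5 KO libraries allow. The METTL3-KO mean stayed above that of the other KO groups in each alternative, by 2.08 points (span of 5000 bp, exact p = 0.667, with the libraries overlapping) to 15.8 (gaps of 500 bp), and by 5.15 to 7.07 without a library. METTL14-KO against WTAP-KO, 0.316 points, turned to -5.43 (gaps of 500 bp), -0.0283 (3000 bp), -2.52 (span of 5000 bp), -0.103 (intersections of at least 4000 bp) and -4.06 (stronger peaks), and ran from -1.96 without METTL14-KO replicate 1 to 2.60. The causes were not tested.

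By limma the count for METTL3-KO, 1844, was 11497 with centring and 1442 to 2479 without a library. The count for METTL14-KO against WTAP-KO, 167, was 7 with the pseudocount 10 times larger, 0 with the KO libraries only (317 at an unadjusted p under 0.05), 255 with centring and 59 to 828 without a library, the highest without METTL14-KO replicate 2 and 68, 59 and 81 without NTC replicates 1, 2 and 3. With the replicate block the first count was 1280, with 6 domains, and the second 0. The replicate block gave 5.86 and 0.316 points for the covered shares. Same-numbered libraries did not deviate together over all blocks (correlations of -0.0512 to 0.0668 over 12 pairs). Between KO groups of 2 libraries the value of replicate 2 repeats that of replicate 1, so the 12 pairs are not all separate checks. As 68.7% of blocks were at 0 in each KO library and add no deviation there, these correlations cannot exclude a shared batch. Depth is not known from the lists, and the 2 libraries of a KO group limit the precision.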

Other observations

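The 3 libraries held 146, 125 and 134 joined domains of at least 4000 bp, which formed 268 clusters, of which 171 were long in 1 library, 57 in 2 and 40 in all 3. In the 399 cases where a library lacked a long domain in a cluster, it had a peak there in 371, with a median of 39.9% of the cluster covered. A stretch without a peak longer than 1000 bp was present in 324 of these and one longer than 2000 bp in 213.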
